A study of Oryza sativa with 9 samples.

Results

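Transcript levels in developing seeds of the rice (Oryza sativa) mutant line EM1084 were compared with those of the wild type (WT) across the whole expressed gene set. Loci were taken from the deposited table when they reached at least 1 RPKM (reads divided by transcript length and by the mapped total of the library) in at least 3 of the 6 libraries. This gave 14587 of the 31263 loci in the table, while the other 16676 were not tested. The study holds 9 libraries from 3 genotypes with 3 biological repeats each, of which the 3 WT and the 3 EM1084 libraries are described here. No result of the transgenic line made in the EM1084 background is given, though its libraries enter 1 alternative fit of all 9 libraries. The WT plants carried the unaltered OsTudor-SN gene. EM1084 carried the amino acid change E503K in the OsTudor-SN protein and no transgene. Plants of both groups were grown at 27 °C under 12 h of light and 12 h of darkness, and total RNA was taken from whole dehulled seeds 10 to 14 days after flowering. EM1084 is a single line, and the labels give neither its origin, nor the other changes it may carry, nor the cultivar of the WT, so an effect of E503K and of any other difference between the lines cannot be told apart.

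Tudor-SN is a conserved RNA-binding protein with staphylococcal nuclease-like domains and a Tudor domain. In rice endosperm it is known as a component of the cytoskeleton-associated machinery that carries storage protein mRNAs to subdomains of the endoplasmic reticulum (ER), and in plants more widely it is known from stress granules and mRNA stability. The developing rice seed consists mainly of starchy endosperm, which fills with starch and storage protein, surrounded by the oil-rich aleurone layer, with a small embryo on one side. Late in development embryo and aleurone accumulate oil bodies, phytic acid and protective LEA (late embryogenesis abundant) proteins.

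Mapped totals, derived from the steps of the RPKM values, were 10551055, 9249133 and 5778627 reads in WT and 12805472, 15167217 and 15630870 in EM1084, so that at a length of 1 kb a single read stood for 0.0948 to 0.173 RPKM in WT and 0.0640 to 0.0781 RPKM in EM1084. Low levels were therefore measured with less precision in WT. Endosperm markers were abundant in every library: the 49 storage protein loci in the table took 57.6% to 62.2% of the reads in WT and 34.0% to 34.8% in EM1084. The 15 starch synthesis loci, also endosperm markers, went the other way, with sums of 9146 to 9950 RPKM in WT and 11875 to 13114 RPKM in EM1084. Green tissue markers were near absent, with a summed level over 32 photosynthesis loci of 8.87 to 12.9 RPKM in WT and 20.2 to 27.3 RPKM in EM1084. The 4 embryo regulator loci summed to 0.128 to 0.730 RPKM in WT and 6.61 to 7.45 RPKM in EM1084, and the 15 loci of cell division and DNA replication to 30.6 to 34.4 RPKM and 70.5 to 81.2 RPKM. The part of these differences in the results below was not tested. Since each library is a pool of whole seeds, fewer cells of a type and less RNA per cell cannot be told apart.

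The libraries of the 2 groups were separated for most of the transcriptome. Pearson's r of log2(RPKM + 1) across loci, which are not independent replicates, was 0.975 to 0.982 among the WT libraries, 0.987 to 0.988 among the EM1084 libraries and 0.833 to 0.839 between groups. The transcript pool was also much less concentrated in EM1084. In WT, 13 to 15 loci held 50% of the reads in listed loci, whereas 116 to 133 loci did so in EM1084. For 90% of the reads the numbers were 1422 to 1623 and 4936 to 4987 loci.

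RPKM are relative to the mapped total, so a smaller share of the most abundant transcripts raises the values of all others. For this reason each result was obtained on RPKM as deposited and after median-of-ratios scaling, which centres the typical locus. The median-of-ratios factors lay between 0.583 and 0.635 in WT and between 1.62 and 1.64 in EM1084, so that passing from one scale to the other lowers EM1084 relative to WT by 1.41 on the log2 scale. The median fold change (EM1084 minus WT, log2 of value + 1) over all 14587 loci was 1.10 on RPKM as deposited and 0.08 after scaling. A fold change of either kind understates the change of loci near or under 1 RPKM, because 1 is added to each value before the logarithm.

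A locus was called where limma gave a Benjamini-Hochberg adjusted p below 0.05, adjusted across the 14587 loci. On RPKM as deposited, 13054 loci (89.5%) were called, 12265 (84.1%) higher and 789 (5.41%) lower in EM1084. Calls after median-of-ratios scaling came to 8307 (56.9%), of which 4384 (30.1%) were in the higher and 3923 (26.9%) in the lower direction. The direction of 1897 loci reversed between the scales, all of them higher as deposited and lower after scaling, and 296 loci were called on neither. Loci called the same way on both scales numbered 5173 (35.5%), namely the 4384 that were higher after scaling and the 789 that were lower as deposited. A change of at least 2-fold in the same direction on both scales was found for 2002 loci (13.7%), of which 1643 (11.3%) were higher and 359 (2.46%) lower. In what follows, "rose" and "fell" are used of loci called the same way on both scales. A locus under 1 RPKM in every library of one group passed the filter only through the other group and had to differ. There were 2654 such loci that entered through EM1084 and 141 that entered through WT, and members of this kind are named as such below and given without a p-value. As further scalings, quantile normalization called 54.5% of loci (27.7% higher, 26.8% lower), and RPKM scaled to their sum outside the storage protein list gave 72.8% (61.0% higher, 11.8% lower). Under all 4 scalings, 4313 loci (29.6%) were called the same way, 3537 (24.2%) higher and 776 (5.32%) lower. On RPKM as deposited, the groups did not overlap at 13026 loci (89.3%), so absence of overlap is the usual case in this comparison.

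**Figure D1:**
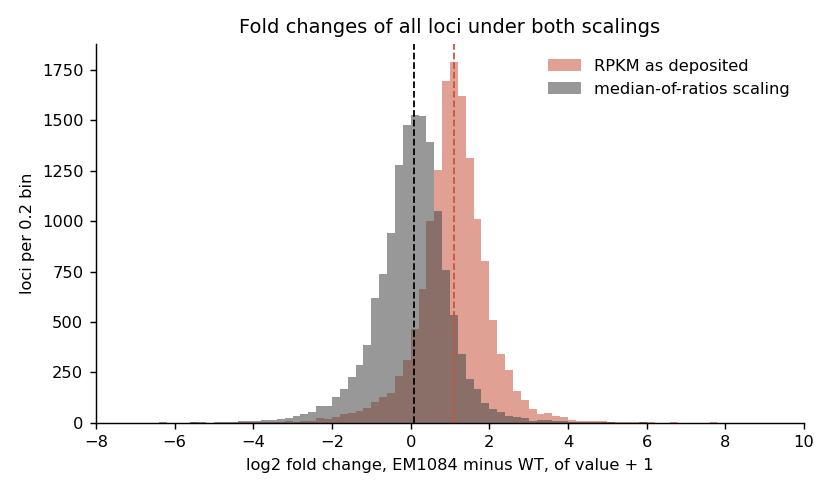
Number of loci (y axis, per bin of 0.2) by log2 fold change, EM1084 minus WT, of value + 1 (x axis) for the 14587 loci, on RPKM as deposited and after median-of-ratios scaling, with dashed lines at the medians of 1.10 and 0.08. The whole distribution moves between the scales, and the tails above and below 0 on both scales hold the loci whose direction did not depend on this choice.

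OsTudor-SN itself (LOC_Os02g32350, chromosome 2, 19098854 to 19105533, minus strand) had 91.1, 97.6 and 88.4 RPKM in WT and 206, 212 and 221 RPKM in EM1084. The EM1084 libraries were all above the WT libraries on this scale. Its log2 fold change was 1.20 as deposited (adjusted p = 1.83e-07, limma), close to the median of all loci, and -0.20 after median-of-ratios scaling (adjusted p = 0.0127, limma), so its direction depended on the scale, and under quantile normalization and scaling outside the storage list it was 0.44 and 0.50. The call after scaling was lost without EM1084 replicate 1 (adjusted p = 0.0570, limma). As E503K is an amino acid change, the RNA level does not check the genotype labels.

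The list with the lowest median was that of the LEA proteins and dehydrins, small hydrophilic proteins that protect cells during drying. Of 8 loci tested, 6 fell and 0 rose, against 5.41% of all loci that fell, and the same 6 fell under all 4 scalings. The median log2 fold change of the list after scaling was -3.39, against 0.08 for all loci. RAB16B (LOC_Os11g26780, chromosome 11, 15336034 to 15337163), a dehydrin induced by abscisic acid, had 248, 254 and 205 RPKM in WT and 3.17, 4.27 and 4.57 RPKM in EM1084. The groups were far apart, a 58.9-fold lower mean RPKM in EM1084, with a log2 fold change of -5.57 as deposited and -6.80 ± 0.11 (SE) after scaling (adjusted p = 7.68e-10, limma). Its neighbour RAB16A (LOC_Os11g26790) went from 451, 461 and 375 RPKM to 53.6, 59.5 and 55.5 RPKM. That 7.63-fold lower mean again left no overlap, and the log2 fold change was -2.90 as deposited and -4.30 ± 0.07 (SE) after scaling (adjusted p = 8.06e-10, limma). Another dehydrin gene of this chromosome 11 cluster, RAB16C (LOC_Os11g26760), fell from 62.9 ± 8.84 to 2.54 ± 0.192 RPKM (SD, n = 3). These 3 neighbours were thus lower by between 7.63-fold and 58.9-fold. The list also holds a nearby dehydrin gene, RAB16D (LOC_Os11g26750), which did not pass the filter and so was not tested. How the authors' counting divided reads between such similar genes is not stated, so the split among them is uncertain.

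EM1 (LOC_Os05g28210), the rice member of the group of Em LEA proteins made in maturing embryos, fell in the same way. Its levels were 510.5, 486 and 503.5 RPKM in WT and 86.6, 80.2 and 94.7 RPKM in EM1084, a 5.74-fold lower mean, with a log2 fold change of -2.51 as deposited and -3.91 ± 0.07 (SE) after scaling (adjusted p = 1.88e-09, limma). WSI18 (LOC_Os01g50910), first known as a water-stress-induced gene, fell from 74.3 ± 10.5 to 25.8 ± 3.99 RPKM (SD, n = 3), and LEA3-2 (LOC_Os03g20680) fell from 35.0 ± 2.38 to 15.5 ± 4.98 RPKM (SD, n = 3). The remaining 2 loci, named because they stood apart from the others, did not fall on both scales. LEA3 (LOC_Os05g46480) had 52.1 ± 4.94 RPKM in WT and 74.9 ± 9.60 in EM1084 (SD, n = 3), higher as deposited (log2 fold change 0.51) and lower after scaling (-0.88), under quantile normalization (-0.41) and outside the storage list (-0.18). DHN1 (LOC_Os02g44870) was at 2.14 ± 0.908 and 3.16 ± 0.428 RPKM (SD, n = 3) and was called on neither scale.

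Other products of embryo and aleurone moved the opposite way. Oleosins coat the oil bodies of these tissues, and 2 of the 3 loci tested rose under all 4 scalings, against 24.2% of all loci. OLE18 (LOC_Os03g49190, chromosome 3, 28021862 to 28022837) had 64.3, 69.7 and 65.4 RPKM in WT and 904, 982 and 1071 RPKM in EM1084. The EM1084 mean was 14.8-fold higher, with a log2 fold change of 3.87 as deposited and 2.47 ± 0.07 (SE) after scaling (adjusted p = 1.67e-08, limma). OLE16 (LOC_Os04g46200) had 119.5, 102 and 117 RPKM in WT and 541, 726 and 662 RPKM in EM1084, a 5.69-fold higher mean without overlap, with a log2 fold change of 2.49 and 1.09 ± 0.12 (SE) on the respective scales (adjusted p after scaling = 6.50e-05, limma). The third locus of the oleosin list (LOC_Os05g50110), at 7.74 ± 0.275 and 11.4 ± 1.94 RPKM (SD, n = 3), was higher as deposited (log2 fold change 0.50) but lower after scaling (-0.78) and under quantile normalization (-0.70), with -0.14 outside the storage list.

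The list with the highest median after scaling (4.25) was the ASR (abscisic acid, stress and ripening) family, small hydrophilic proteins induced by drying in many plants. Of 4 ASR loci tested, 3 rose under all 4 scalings, against 24.2% of all loci, and 1 of the 3 had entered only through EM1084. LOC_Os01g72900 and LOC_Os01g72910 lie side by side on chromosome 1, at 42281272 to 42281973 on the minus strand and 42282832 to 42283632 on the plus strand. LOC_Os01g72900 had 0.996, 1.89 and 0 RPKM in WT and 313, 385 and 375 RPKM in EM1084. LOC_Os01g72910 had 0.141, 1.94 and 0 RPKM in WT and 285, 366 and 288 RPKM in EM1084. Both were thus close to silent in WT, with 16 and 13 reads over its 3 libraries, and among the abundant transcripts of EM1084, with 8972 and 9171 reads. Their log2 fold changes after scaling were 6.65 ± 0.41 and 6.81 ± 0.44 (SE). Each reached 1 RPKM in only 1 WT library, so the EM1084 libraries carried both past the filter, and no p-value is given. LOC_Os02g33820 was under 1 RPKM in every WT library and so entered only through EM1084. It had 2 reads over the WT libraries and 206 over the EM1084 libraries, at 0, 0 and 0.402 RPKM against 4.62, 4.59 and 7.05 RPKM. The 4th locus (LOC_Os11g06720), at 1.88 ± 0.287 and 1.36 ± 0.558 RPKM (SD, n = 3), was not called as deposited. It was lower after scaling (log2 fold change -1.17), under quantile normalization (-1.39) and outside the storage list (-0.74).

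Transcription factors of the abscisic acid pathway were present at low levels. All 7 loci of the abscisic acid list were higher as deposited, against 84.1% of all loci. On both scales 3 rose, against 30.1% of all loci, while 1 was lower after scaling. The 3 that rose encode bZIP factors that act on abscisic acid responsive promoters. ABI5 (LOC_Os01g64000) had 1.00, 1.21 and 0.386 RPKM in WT and 5.79, 5.18 and 5.74 RPKM in EM1084, with a log2 fold change of 0.92 ± 0.22 (SE) after scaling (adjusted p = 0.00654, limma). The bZIP46 gene (LOC_Os06g10880) rose from 1.21 ± 0.454 to 6.07 ± 0.129 RPKM (SD, n = 3). TRAB1 (LOC_Os08g36790), which binds the seed regulator VP1, rose from 1.79 ± 1.05 to 10.1 ± 1.44 RPKM (SD, n = 3), with an adjusted p of 0.0263 after scaling (limma). This call was lost without EM1084 replicate 1 (adjusted p = 0.0707, limma), without EM1084 replicate 3 (0.0877) and without the filter on low values (0.0593). In these seeds these 3 bZIP genes were thus higher, TRAB1 less securely, while RAB16A, RAB16B, RAB16C and EM1 transcripts were lower. The other bZIP genes of the list were not among the loci that rose. Both embryo regulators that could be tested entered the comparison only through the EM1084 libraries and so had to differ. LFL1 (LOC_Os01g51610), a B3-domain factor, had 0.190, 0.289 and 0 RPKM in WT and 2.55, 2.81 and 3.20 in EM1084, and LEC1B (LOC_Os06g17480), a nuclear factor Y subunit, had 0.540, 0 and 0 RPKM and 4.30, 3.88 and 2.67 RPKM.

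**Figure D2:**
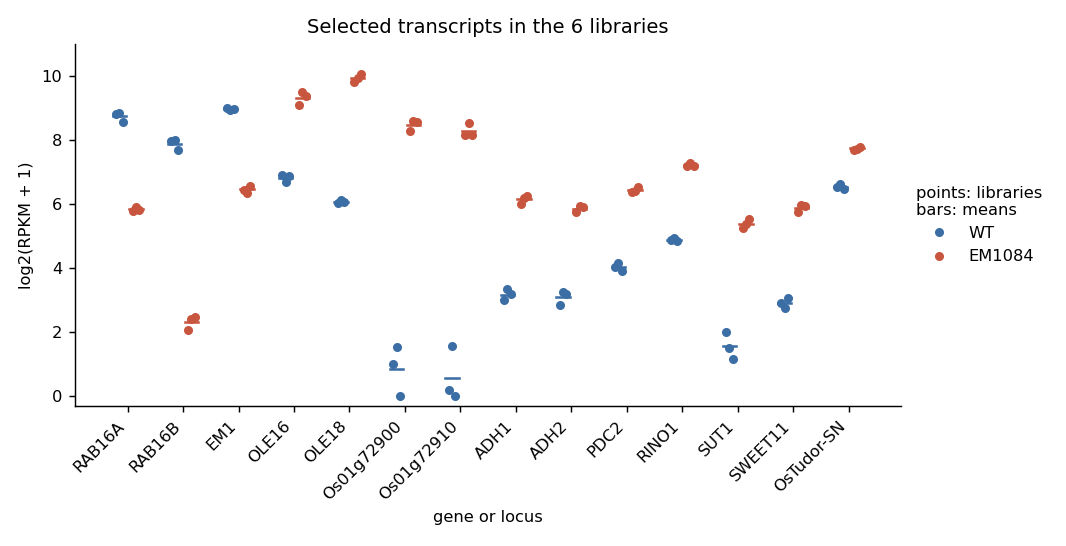
Level of 14 transcripts as log2(RPKM + 1) on RPKM as deposited (y axis) in each of the 3 WT and 3 EM1084 libraries, with points for libraries and bars for group means. The dehydrins RAB16A and RAB16B and EM1 lie lower in EM1084, the other transcripts higher, and in no case do the groups overlap, although for OsTudor-SN the direction reverses after median-of-ratios scaling (log2 fold change -0.20).

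Enzymes of ethanolic fermentation, which regenerate NAD+ when oxygen is short, rose together. All 3 loci tested, of 5 in the table, rose at least 2-fold on both scales, against 11.3% of all loci, and were higher under all 4 scalings. ADH1 (LOC_Os11g10480), an alcohol dehydrogenase, had 6.95, 9.18 and 8.11 RPKM in WT and 62.8, 72.5 and 74.5 RPKM in EM1084. Its mean was 8.66-fold higher, with log2 fold changes of 2.97 as deposited and 1.63 ± 0.11 (SE) after scaling (adjusted p = 4.58e-06, limma). The adjacent and similar ADH2 (LOC_Os11g10510) rose from 7.63 ± 1.20 to 57.2 ± 3.79 RPKM (SD, n = 3). PDC2 (LOC_Os03g18220), a pyruvate decarboxylase, supplies the acetaldehyde that alcohol dehydrogenase reduces, and had 15.3, 16.8 and 14.0 RPKM in WT and 81.4, 83.9 and 90.8 RPKM in EM1084. Its groups were likewise separate, with a log2 fold change of 2.40 as deposited and 1.03 ± 0.08 (SE) after scaling (adjusted p = 6.49e-06, limma).

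Phytic acid, the phosphate store of embryo and aleurone, is made by a pathway of which 3 loci were tested and 3 rose under all 4 scalings, against 24.2% of all loci. RINO1 (LOC_Os03g09250), the myo-inositol 3-phosphate synthase of the first step, had 28.4, 29.8 and 27.8 RPKM in WT and 145, 155 and 146 RPKM in EM1084. This 5.18-fold higher mean gave log2 fold changes of 2.33 as deposited and 0.95 ± 0.06 (SE) after scaling (adjusted p = 3.41e-06, limma). MRP5 (LOC_Os03g04920), an ABC transporter of phytic acid, rose from 5.79 ± 0.717 to 32.5 ± 1.46 RPKM (SD, n = 3), and LPA1 (LOC_Os02g57400), a gene whose mutation lowers seed phytic acid, rose from 8.88 ± 1.03 to 35.9 ± 1.44 RPKM (SD, n = 3), both as deposited. Of the 3 loci, 1 was at least 2-fold higher on both scales.

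Carriers and enzymes of sugar entry into the grain were the next group. Of 13 loci tested, 5 rose and 0 fell, near the shares of all loci of 30.1% and 5.41%, and 1 of the 5 had entered only through EM1084. The 5 were higher under all 4 scalings, while 3 others were lower after scaling, against 24.2% and 26.9% of all loci. SUT1 (LOC_Os03g07480), a plasma membrane sucrose transporter of the filling grain, had 3.06, 1.83 and 1.26 RPKM in WT and 37.2, 40.4 and 45.3 RPKM in EM1084. The groups were far apart, with a log2 fold change of 3.82 as deposited and 2.64 ± 0.21 (SE) after scaling (adjusted p = 1.02e-05, limma). SWEET11 (LOC_Os08g42350), a sugar efflux carrier of the seed, had 6.46, 5.71 and 7.38 RPKM in WT and 52.9, 61.5 and 60.0 RPKM in EM1084, 8.92-fold higher in the mean and with a log2 fold change of 1.66 ± 0.13 (SE) after scaling (adjusted p = 7.04e-06, limma). SWEET15 (LOC_Os02g30910), a related carrier that entered only through EM1084, was at 0.302 ± 0.336 RPKM in WT and 6.27 ± 2.42 RPKM in EM1084 (SD, n = 3). The sucrose synthase gene SUS1 (LOC_Os03g28330) rose from 2.44 ± 0.599 to 19.0 ± 0.504 RPKM and SUS3 (LOC_Os07g42490) from 48.9 ± 1.30 to 186 ± 10.5 RPKM as deposited (SD, n = 3). Of the 13 loci tested, 4 were at least 2-fold higher on both scales, against 11.3% of all loci.

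Starch synthesis lies downstream of sugar entry. Of 15 loci tested, 10 were higher as deposited but 12 were lower after scaling, against 84.1% and 26.9% of all loci. On both scales 1 rose and 1 fell, against 30.1% and 5.41% of all loci. Under quantile normalization 9 were higher and 3 lower, against 27.7% and 26.8% of all loci. The number that fell on both scales was 2 without WT replicate 3 and 3 without EM1084 replicate 3. The locus that fell, AGPL1 (LOC_Os05g50380), encodes a large subunit of ADP-glucose pyrophosphorylase and had 70.2, 76.6 and 73.1 RPKM in WT and 19.4, 18.1 and 19.8 RPKM in EM1084. Its groups were well separated (log2 fold change -1.89 as deposited and -3.25 ± 0.08 (SE) after scaling, adjusted p = 6.72e-09, limma). The locus that rose was PPDKB (LOC_Os05g33570), pyruvate orthophosphate dikinase, at 267 ± 8.40 and 885 ± 53.8 RPKM (SD, n = 3), with a log2 fold change of 0.31 ± 0.05 (SE) after scaling (adjusted p = 0.00119, limma). Among the 6 endosperm transcription factors 5 were lower after scaling, against 26.9% of all loci. Under quantile normalization, however, 2 were higher and 1 was lower, against 27.7% and 26.8%. On both scales 1 rose, against 30.1%. The gene that rose, NF-YB1 (LOC_Os02g49410), is a nuclear factor Y subunit of the aleurone known to act on sucrose transporter genes, and it had 7.22, 4.55 and 4.33 RPKM in WT and 56.5, 59.7 and 58.4 RPKM in EM1084. This was a 10.8-fold higher mean, with log2 fold changes of 3.24 as deposited and 1.94 ± 0.16 (SE) after scaling (adjusted p = 1.20e-05, limma).

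Protein folding genes of the ER were higher for the most part. Of 13 loci, 9 rose under all 4 scalings, against 24.2% of all loci, and 1 of the 9 had entered only through EM1084. The 1 locus that fell on both scales stands against 5.41%. PDIL1-1 (LOC_Os11g09280), a disulfide isomerase that acts on proglutelin, had 499, 500.3 and 461 RPKM in WT and 1958, 1956 and 2241 RPKM in EM1084. It was 4.22-fold higher in the mean, with log2 fold changes of 2.07 as deposited and 0.66 ± 0.06 (SE) after scaling (adjusted p = 1.75e-05, limma). ERO1 (LOC_Os03g52340), the oxidase that recharges such isomerases, rose from 19.2 ± 0.731 to 86.9 ± 4.03 RPKM as deposited (SD, n = 3). Of the 13 loci, 2 were at least 2-fold higher on both scales, against 11.3% of all loci. The chaperone gene BiP1 (LOC_Os02g02410) went the other way, with 1916, 1939 and 1745 RPKM in WT and 1577, 1568 and 1765 RPKM in EM1084. These groups overlapped, and the log2 fold change was -0.19 as deposited (adjusted p = 0.0263, limma) and -1.60 after scaling but 0.21 under quantile normalization. The call as deposited was lost without WT replicate 1 (adjusted p = 0.0943, limma), WT replicate 2 (0.0942), EM1084 replicate 1 (0.0983) or EM1084 replicate 2 (0.0805), and without trend and robust fitting (0.140). In glutelin export and sorting, 1 of 6 loci rose (2 without WT replicate 3) and 1 fell, against 30.1% and 5.41% of all loci. SAR1A (LOC_Os01g23620), a small GTPase of ER export vesicles, had 4.75, 4.73 and 5.51 RPKM in WT and 40.4, 37.9 and 36.8 RPKM in EM1084, against which the other 2 SAR1 loci were not called after scaling. SAR1A was at least 2-fold higher on both scales. VPE1 (LOC_Os04g45470), the vacuolar enzyme that cleaves proglutelin, fell from 126 ± 5.27 to 100.3 ± 7.73 RPKM (SD, n = 3), with the limit that its coordinates overlap those of another listed locus.

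Heat shock protein genes moved in both directions. Of 13 small heat shock protein loci, 7 rose and 2 fell, against 30.1% and 5.41% of all loci. Of the 7, 2 had entered only through EM1084, and 4 rose without EM1084 replicate 2, without EM1084 replicate 3 or without the filter on low values. The neighbours LOC_Os01g04370 and LOC_Os01g04380 on chromosome 1 had 17.5, 19.6 and 19.9 RPKM against 152, 149 and 179 RPKM, and 0, 0.256 and 0.615 RPKM against 11.9, 14.8 and 13.7 RPKM. The first had a log2 fold change after scaling of 1.63 ± 0.10 (SE, adjusted p = 1.76e-06, limma), and the second had entered only through EM1084. The 2 that fell were LOC_Os02g52150, from 19.7 ± 2.01 to 7.04 ± 0.890 RPKM, and LOC_Os05g42120, from 8.46 ± 2.79 to 2.58 ± 0.272 RPKM (SD, n = 3). Of 16 loci for HSP70, HSP90, HSP101 and heat shock factors, 3 rose and 2 fell, a share of rises under that of all loci (30.1%), and both that fell were HSP70 genes. The number that rose was 1 without WT replicate 2, without any 1 of the EM1084 libraries, without the filter or without trend and robust fitting. The HSP90 gene LOC_Os09g30418, which overlaps another listed locus, rose from 98.9 ± 9.56 to 402 ± 64.4 RPKM as deposited (SD, n = 3). None of the 3 that rose was at least 2-fold higher on both scales. The abundant HSP70 gene LOC_Os11g47760 fell from 1037 ± 67.6 to 738 ± 17.3 RPKM (SD, n = 3), with log2 fold changes of -0.49 as deposited and -1.90 ± 0.04 (SE) after scaling (adjusted p = 5.66e-09, limma).

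Among 8 antioxidant loci, 2 superoxide dismutases rose under all 4 scalings, near the 24.2% of all loci, and 1 catalase was lower, against 5.32%. Of the 2 that rose, 1 was at least 2-fold higher on both scales. The copper/zinc superoxide dismutase gene LOC_Os07g46990 had 20.8, 19.4 and 21.1 RPKM in WT and 140.3, 148 and 124 RPKM in EM1084, and the manganese enzyme gene LOC_Os05g25850 rose from 35.6 ± 3.84 to 182 ± 18.6 RPKM (SD, n = 3). The catalase gene CATC (LOC_Os03g03910), which encodes a peroxisomal enzyme, entered only through WT and had 4.73, 6.46 and 4.88 RPKM in WT and 0.294, 0.124 and 0.241 RPKM in EM1084. Its mean was 24.4-fold lower on RPKM as deposited. The plasma membrane aquaporin gene PIP2 (LOC_Os07g26690) was the 1 of 7 aquaporin loci that fell, from 388, 369 and 309.9 RPKM to 188, 212 and 196 RPKM, and 0 rose (1 without WT replicate 2). Of all loci, 5.41% fell and 30.1% rose. In nitrogen metabolism 2 of 8 loci rose (1 without any 1 of the EM1084 libraries), a share near that of all loci, and 1 of them had entered only through EM1084. The other was the alanine aminotransferase gene AlaAT (LOC_Os10g25130), which rose from 101 ± 8.52 to 444 ± 21.1 RPKM (SD, n = 3) with a log2 fold change of 0.72 ± 0.06 (SE) after scaling (adjusted p = 1.55e-05, limma).

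Regulatory and housekeeping lists stayed closer to the background of 30.1% rising and 5.41% falling. In small RNA machinery all 10 loci were higher as deposited, against 84.1% of all loci, and 3 rose and 0 fell on both scales. The number that rose was 2 without any 1 of the EM1084 libraries, without WT replicate 3 or without the filter. With the replicate number as a block it was also 2, and without WT replicate 2 or with all 9 libraries it was 4. No locus of this list was at least 2-fold higher on both scales. DCL4 (LOC_Os04g43050), a Dicer-like nuclease, rose from 1.77 ± 0.346 to 7.86 ± 0.679 RPKM (SD, n = 3), and DCL1 (LOC_Os03g02970), which overlaps another listed locus and entered only through EM1084, had 0.583 ± 0.138 and 3.98 ± 0.409 RPKM. In the Polycomb and seed MADS-box list 2 of 7 loci rose, 1 of them at least 2-fold on both scales. FIE2 (LOC_Os08g04270), a Polycomb subunit, went from 5.41 ± 0.832 to 23.6 ± 2.35 RPKM (SD, n = 3), and MADS29 (LOC_Os02g07430), known from degeneration of maternal seed tissue, entered only through EM1084 with 3 reads in all of WT and 142 in EM1084. In the gibberellin list 2 of 7 loci were higher on both scales, and both had entered only through EM1084. GA2ox3 (LOC_Os01g55240), which inactivates gibberellin, had 0.400 ± 0.0315 RPKM in WT and 3.16 ± 0.954 RPKM in EM1084 (SD, n = 3). The gibberellin response factor GAMYB (LOC_Os01g59660) had 0.552 to 0.642 RPKM in WT and 3.04 to 5.11 RPKM in EM1084.

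In cell division and DNA replication 4 of 13 loci rose and 0 fell, against 30.1% and 5.41% of all loci. Under quantile normalization 1 was higher and 3 were lower, against 27.7% and 26.8%. The number that rose was 2 without EM1084 replicate 1 or without the filter and 1 without EM1084 replicate 2 or 3. Of the 4, MCM4 (LOC_Os01g36390), a subunit of the replicative helicase, entered only through EM1084, at 0.202 ± 0.122 RPKM in WT and 2.04 ± 0.345 RPKM in EM1084 (SD, n = 3), and it was not called under quantile normalization. Among 4 photosynthesis loci tested 1 was higher on both scales, LOC_Os04g16680 (sedoheptulose bisphosphatase), which entered only through EM1084, with 2 reads over the WT libraries and 382 over the EM1084 libraries, at 4.90 to 5.36 RPKM in EM1084. Of 13 loci often used as reference genes, 12 were higher as deposited, against 84.1% of all loci. On both scales 3 rose, against 30.1%, while 5 were lower after scaling, against 26.9%. ACT1 (LOC_Os03g50885) had 51.6 ± 5.41 RPKM in WT and 131 ± 10.2 in EM1084 (SD, n = 3), a log2 fold change of 1.33 as deposited and -0.06 after scaling, with 0.47 under quantile normalization and 0.63 outside the storage list. The glycolytic GAPDH locus LOC_Os02g38920 rose from 94.0 ± 5.91 to 511 ± 13.6 RPKM (SD, n = 3) and its relative LOC_Os04g40950 from 26.0 ± 2.22 to 146 ± 6.36 RPKM, with log2 fold changes of 1.03 and 1.06 after scaling. The alpha-tubulin locus LOC_Os11g14220 rose from 144 ± 12.3 to 517 ± 12.5 RPKM (SD, n = 3), with 0.44 after scaling. Of 2 alpha-amylase loci 1 rose, a call lost without WT replicate 1, WT replicate 2 or any 1 of the EM1084 libraries. Of 2 defence loci 1 that entered only through EM1084 was higher and 1 fell, the fall being lost without WT replicate 1 or WT replicate 2.

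**Figure D3:**
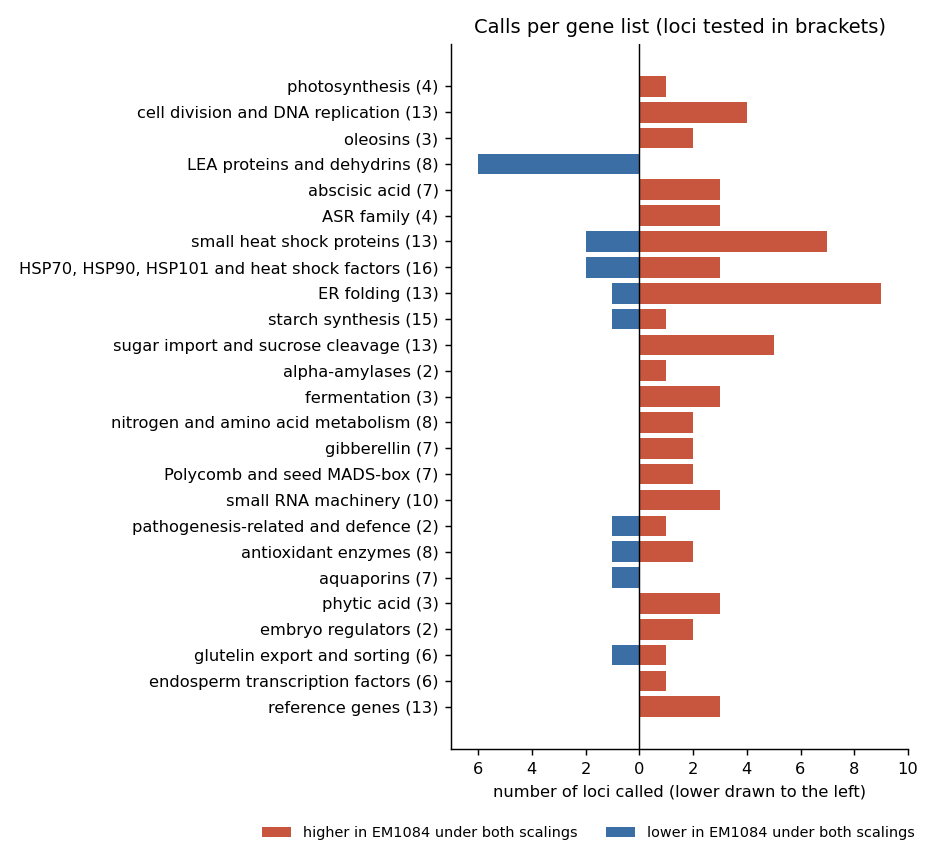
Number of loci called in the same direction on RPKM as deposited and after median-of-ratios scaling (x axis, higher in EM1084 to the right and lower to the left) for each gene list outside the storage proteins (y axis, number of loci tested in brackets). The LEA list stands out to the left with 6 of 8, and ER folding and small heat shock proteins reach 9 of 13 and 7 of 13 to the right, against 30.1% of all loci. The 7 become 4 without EM1084 replicate 2 or 3 or without the filter, and BiP1, the 1 ER folding locus to the left, is higher under quantile normalization.

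Many of the largest changes lay outside the lists. Of the 14345 loci outside them, 2904 (20.2%) rose and 3.51% fell with groups that did not overlap and a mean of at least 5 RPKM in the higher group. The loci named here are at 0 in one group and so entered through the other only. LOC_Os07g33997 (chromosome 7, 20310035 to 20312111, plus strand) was listed at 0 in all 3 WT libraries and had 627, 611 and 609.7 RPKM in EM1084. Against a floor of 3 reads over the WT group, its level was at least 3356-fold higher as deposited and at least 1199-fold higher after median-of-ratios scaling. LOC_Os09g32169 (chromosome 9, 19195347 to 19196161, minus strand) was also at 0 in WT and had 132, 148 and 132 RPKM in EM1084, at least 716-fold higher as deposited and at least 256-fold higher after scaling. In the opposite direction, LOC_Os12g12140 (chromosome 12, 6657439 to 6657930, minus strand) had 134, 122 and 132 RPKM in WT and was at 0 in EM1084, at least 927-fold lower as deposited and at least 2452-fold lower after scaling. LOC_Os08g14350 (chromosome 8, 8605007 to 8605717, minus strand) had 56.8, 50.9 and 47.7 RPKM in WT and was at 0 in EM1084, at least 535-fold lower as deposited and at least 1413-fold lower after scaling. The files do not pair these identifiers with names or functions.

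Such on/off loci were counted by a fixed rule, at least 5 RPKM in all 3 libraries of one group and at most 0.5 RPKM in all 3 of the other. By it, 119 loci (0.816%) were high in EM1084 only and 15 (0.103%) high in WT only. None of them belongs to a gene list. Of the 119, 43 were at 0 in every WT library, and of the 15, 9 were at 0 in every EM1084 library. Group means in the higher group ran from 5.19 to 616 RPKM (median 11.9) for the first kind and from 7.58 to 129.6 RPKM (median 15.6) for the second. Reads in the low group summed to at most 41 per locus in WT and at most 6 in EM1084. Their median transcript length was 1299 and 851 bases, against 1805 bases for all loci tested. Just inside and just outside the rule, the lowest EM1084 library was at 5.03 and 4.98 RPKM. The numbers depend on scale and limit, with 51 and 44 loci when the same limits were applied after median-of-ratios scaling, and 32 and 9 with limits of 10 and 0.2 RPKM.

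The on/off loci were spread over all 12 chromosomes, in 105 of 380 windows of 1 Mb that hold tested loci, with at most 4 in a window. Chromosome 11 held the most, 19 loci high in EM1084 only (2.60% of its 732 tested loci) and 2 high in WT only. It also had the highest share of loci at least 2-fold higher on both scales, 15.4%, where the other chromosomes ran from 9.65% to 13.3%, and of loci at least 2-fold lower, 3.96%, where the others ran from 1.25% to 3.56%. On/off loci high in the same group and less than 50 kb from the next formed 6 runs with 15 loci in total, all high in EM1084. In 1 further pair, 36.6 kb apart, LOC_Os07g33997 is followed by a locus high in WT only. The run with the most loci lay on chromosome 4 from 9153148 to 9195969 with 4 loci, whose EM1084 means were 9.32 to 30.2 RPKM. It holds LOC_Os04g16816 and LOC_Os04g16775, of 414 and 249 bases. LOC_Os09g24406 and LOC_Os09g24408, which form a run on chromosome 9, have these same lengths, as do LOC_Os07g25018 and LOC_Os08g15264. Sequences were not compared, so whether such loci are copies that share reads is not known. The numbers of on/off loci and runs may thus count copies more than once. A run of 3 loci on chromosome 10 from 16426002 to 16477079 reached 36.1 to 107 RPKM. Of the others, 2 lay on chromosome 11, at 100824 to 108210 and 6872037 to 6877418.

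**Figure D4:**
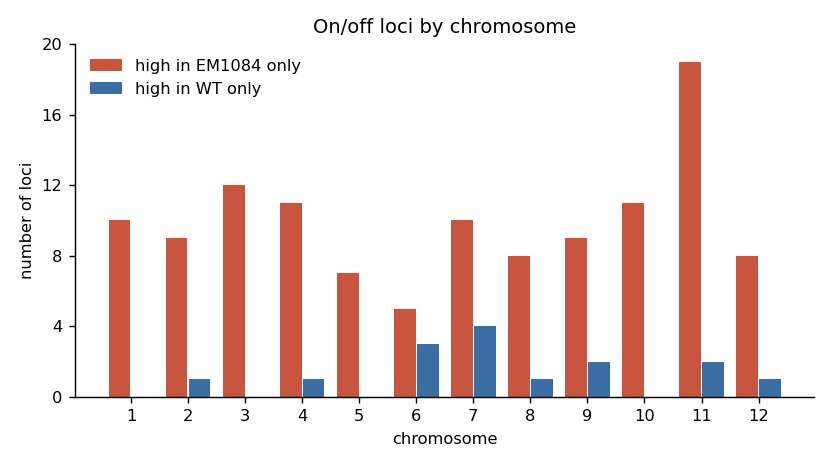
Number of loci (y axis) with at least 5 RPKM in all libraries of one group and at most 0.5 RPKM in all libraries of the other, by chromosome (x axis) and by the group in which they are high. The EM1084-only loci outnumber the WT-only loci on each chromosome, and chromosome 11 has the most with 19, although after median-of-ratios scaling the totals are 51 and 44.

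The size and direction of change varied with expression level. The median log2 fold change after scaling fell from 0.24 among the 3367 loci with a mean under 2 RPKM over the 6 libraries to -0.22 among the 2112 loci of 20 to 100 RPKM and -2.19 among the 53 loci of at least 1000 RPKM. As deposited, the medians were 0.93, 1.15 and -0.78. Loci at least 2-fold lower on both scales made up 1.99% of the lowest level and 43.4% of the highest. Storage proteins account for 28 of these 53 loci and 18 of the 23 that were at least 2-fold lower. The other 25 had medians of 0.02 as deposited and -1.39 after scaling, and 5 of them were at least 2-fold lower. Of all 359 loci at least 2-fold lower on both scales, 335 were not in the storage list.

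**Figure D5:**
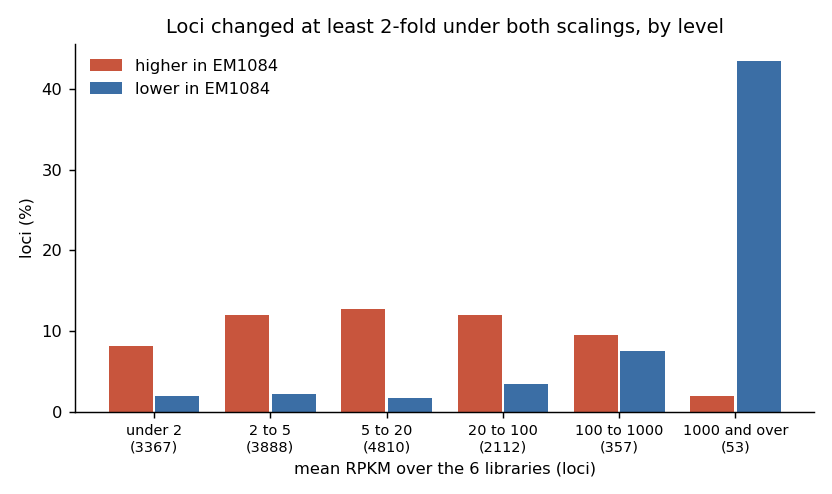
Share of loci (y axis, percent) that were at least 2-fold higher or lower in EM1084 on both RPKM as deposited and median-of-ratios scaling, by mean RPKM over the 6 libraries (x axis, number of loci in brackets). The higher share lies between 8.14% and 12.8% up to 100 RPKM, and the lower share reaches 43.4% at 1000 RPKM and above.

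Transcript length went with the share of strong rises. Of 321 loci shorter than 500 bases, 36.1% were at least 2-fold higher on both scales, compared with 17.0% of the 1898 loci of 500 to 1000 bases and 6.73% of the 2243 loci of at least 3000 bases. Loci at least 2-fold lower on both scales made up 4.36%, 5.95% and 0.892% of these classes. The short loci also carried fewer reads, with a median of 19.7 per library against 207 for the longest class. The part of read number in these differences was not tested.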

How the data were processed

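RNA-seq values were taken from the deposited table of RPKM, which the authors computed for 31263 rice loci with 1 column per library, per the file headers. Per the labels' protocols, total RNA went into ScriptSeq v2 libraries. No source used here states the aligner, the read counter, the use of strand or the genome build. Coordinates are printed as the table gives them. Read numbers were derived from the steps of the values, of which all 281367 in the table came out whole within 0.001. Between 58.6% and 72.4% of values from 1 to 20 reads were even, so that single reads may not be single fragments. Floors cover counting error only.

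Loci with at least 1 RPKM in at least 3 of the 6 libraries were fitted as log2(deposited RPKM + 1) in R 4.3.3 by limma 3.58.1 (moderated test with a mean trend and robust hyperparameters, two-sided, Benjamini-Hochberg over all loci), and again after each library was divided by its median of ratios to the geometric mean, over 13494 loci above 0 in all 6. The fits were also run on simulated data in which few loci changed and the scales did not differ. That setting is unlike these libraries, so the run cannot judge the calls given here. With 3 against 3 libraries an exact permutation test cannot give a p below 0.1, so none was used for single loci. Replicate pairs differed beyond sampling noise (chi-square per degree of freedom 6.84 to 49.2). The labels call the samples biological repeats without naming plants, so p-values measure the spread between these samples.

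Gene lists were written by locus from general knowledge of the rice literature. The comparison, its members and the lists were chosen with earlier results of these data known, and the lists are described by counts without a set test. Names are not in the table: of 235 named loci, 118 names occur in the RefSeq gene table (assembly ASM3414082v1) on the same chromosome with a gene length within 10%, 12 on the same chromosome only, 9 on another chromosome and 96 not at all. Among the names printed, OsTudor-SN, RAB16A, WSI18, OLE16, ERO1, AGPL1, SAR1A, ABI5, bZIP46, LEC1B, FIE2, DCL1, GA2ox3, AlaAT, CATC and the HSP70, ASR, small heat shock and photosynthesis assignments rest on that knowledge alone. From each list the rule took the 3 loci called the same way on both scales with the smallest adjusted p after scaling and the 2 with the highest mean, and outside the lists the 10 that rose most and the 10 that fell most. It took 106 loci, 86 of them from lists, and not all are printed. Loci printed beside these (RAB16C, WSI18, LEA3-2, LEA3, DHN1, LOC_Os05g50110, LOC_Os11g06720, SWEET15, SUS3, LOC_Os05g42120, ACT1) were chosen after their values were seen. Alternatives were other pseudocounts, filters, scalings and fits, the replicate block and leaving out each library.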

Additional observations from a re-analysis of the deposited data

How the results depend on the processing

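Each count was recomputed with 1 choice changed at a time, except that both on/off limits were changed together, as were the trend and robust options. Several counts moved by more than 1.5 times. Loci called on RPKM as deposited numbered 7871 with a filter of 5 RPKM, against 13054. That filter tests fewer loci, and 7863 of the 7871 were called the same way with the filter of 1 RPKM. Under quantile normalization 7948 (4045 higher, 3903 lower) were called, of which 4809 went the same way as on RPKM as deposited. Scaling outside the storage list called 10623 (8895 higher, 1728 lower). Loci changed at least 2-fold on both scales numbered 3018 with a pseudocount of 0.1, against 2002. On/off loci numbered 41 with limits of 10 and 0.2 RPKM, against 134. limma-voom on the derived reads called 8439 loci after scaling (4306 higher, 4133 lower), against 8307.

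Leaving out 1 library at a time gave 12662 to 12934 loci called as deposited, 6905 to 8597 after scaling, 4224 to 5297 called the same way on both scales, 1876 to 2172 changed at least 2-fold, and 143 to 164 on/off loci. The on/off rule asks for every library of each group, so leaving 1 out could only keep or raise that number from 134. For OsTudor-SN it gave log2 fold changes of 1.17 to 1.24 as deposited and -0.24 to -0.18 after scaling. The call of OsTudor-SN after scaling was lost without the filter on low values (-0.16), without trend and robust fitting (-0.20, adjusted p = 0.108, limma) and without EM1084 replicate 1 (adjusted p = 0.0570, limma).

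The replicate numbers did not pair the samples: same-numbered WT and EM1084 libraries had deviations correlated at r of -0.03 to 0.00 across loci. With the replicate number as a block, 13003 loci were called as deposited, 8059 after scaling, 5049 on both scales and 2011 changed at least 2-fold.

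Directions reversed against RPKM as deposited for LEA3 (LOC_Os05g46480, -0.41 under quantile normalization and -0.18 outside the storage list), DHN1 (LOC_Os02g44870, -0.69 under quantile normalization), LOC_Os05g50110 (-0.70 and -0.14) and BiP1 (LOC_Os02g02410, 0.21 under quantile normalization). The alternatives of quantile normalization and scaling outside the storage list for single loci, and of leaving out libraries for on/off loci, were chosen after the data were seen. Depth limits the low values, since 1 read at 1 kb is worth up to 0.173 RPKM in WT. The causes of these shifts were not tested.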
